A study of Mus with 9 samples.

Results

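The genes described here are 9 receptors for serotonin, Htr1a, Htr1b, Htr2a, Htr2c, Htr3a, Htr4, Htr5a, Htr6 and Htr7. They were taken by gene symbol from both deposited tables, where each had 1 of the 22206 probe sets, and 21154 genes in all had a probe set of their own. A probe set is the group of short probes on the array that reports 1 gene. The mouse array carried probe sets for 14 serotonin receptor genes in all, and the other five (Htr1d, Htr1f, Htr2b, Htr3b and Htr5b) are set beside the 9 below.

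Serotonin reaches the hippocampus through axons of raphe neurons in the brainstem, while most of its receptors there are made by the hippocampal cells themselves. All but one kind of these receptors act through G proteins. The Htr1 and Htr5 receptors signal through inhibitory Gi/o proteins, which lower cAMP and open potassium channels. The Htr2 receptors signal through Gq and phospholipase C, and Htr4, Htr6 and Htr7 raise cAMP through Gs. Htr3a encodes a subunit of a channel that serotonin opens directly.

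Hippocampal RNA of 9 male mice was hybridized to Clariom S Mouse arrays, 3 arrays in each group by the sample records. The mice were 16 weeks old when taken into the study, and RNA was taken after the dosing and testing described next. The senescence-accelerated mouse-prone 8 (SAMP8) strain shows early decline of memory, and the senescence-accelerated mouse-resistant 1 (SAMR1) strain served as the control for normal aging. One SAMP8 group was given trigonelline (TG), an alkaloid of coffee and fenugreek, orally (5 mg/kg per day over 30 days), and the other SAMP8 group and the SAMR1 group were given vehicle, which is saline in the sample records and water in the study's methods. Behavioural testing in a water maze followed over 8 days, and TG was continued through it. SAMR1 and SAMP8 are separate inbred strains, so a difference between them carries every genetic difference between the strains.

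The deposited tables give 1 average per group and gene, as log2 signal, which by the records summarizes 3 arrays. Values of single arrays were not analysed here for these genes, so no spread between mice can be attached to any average, no test was run, and the precision is limited by the number of arrays. A difference below is a difference of 2 such averages on the log2 scale, where 1 unit is a 2-fold ratio. The averages are given to 2 decimals, so that rounding alone can move a difference by 0.01. For the same reason, it cannot be said which neighbours in an order of groups differ beyond their spread. A difference of more than 1.5-fold (0.58 on the log2 scale) in either direction is called past the limit, and the share of all probe sets past that limit is given with the counts of the receptors and of related genes. Signals of different probe sets depend on their probes and are not compared with each other as levels of RNA.

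Htr1b and Htr2a had the widest ranges of the 3 group averages among the 9 receptors, 1.05 and 0.72 on the log2 scale, and each was highest in SAMP8. Htr1b encodes a receptor on axon terminals that restrains the release of serotonin and of other transmitters. It stood at 7.68 in SAMR1 and 8.73 in SAMP8, against 8.00 with TG. The SAMP8 average was thus 1.05 higher than that of SAMR1 on the log2 scale, a ratio of 2.07, and TG-treated SAMP8 was 0.73 below SAMP8 (difference -0.73), a ratio of 1.66. With TG the average still lay 0.32 above that of SAMR1. Htr2a encodes the excitatory Gq-coupled receptor that is bound by psychedelic drugs and blocked by many antipsychotics. It was listed at 8.32 in SAMR1 and 8.17 in TG-treated SAMP8, both below 8.89 in SAMP8. The difference of SAMP8 from SAMR1 was 0.57, a ratio of 1.48, which is just inside the limit, and with TG it was -0.72, a ratio of 1.65. The TG-treated average of Htr2a lay 0.15 below that of SAMR1 (difference -0.15). Both comparisons use the same SAMP8 average with opposite sign, so a high SAMP8 average alone gives a gene this pattern, and the 2 differences of a gene are not independent of each other.

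**Figure D1:**
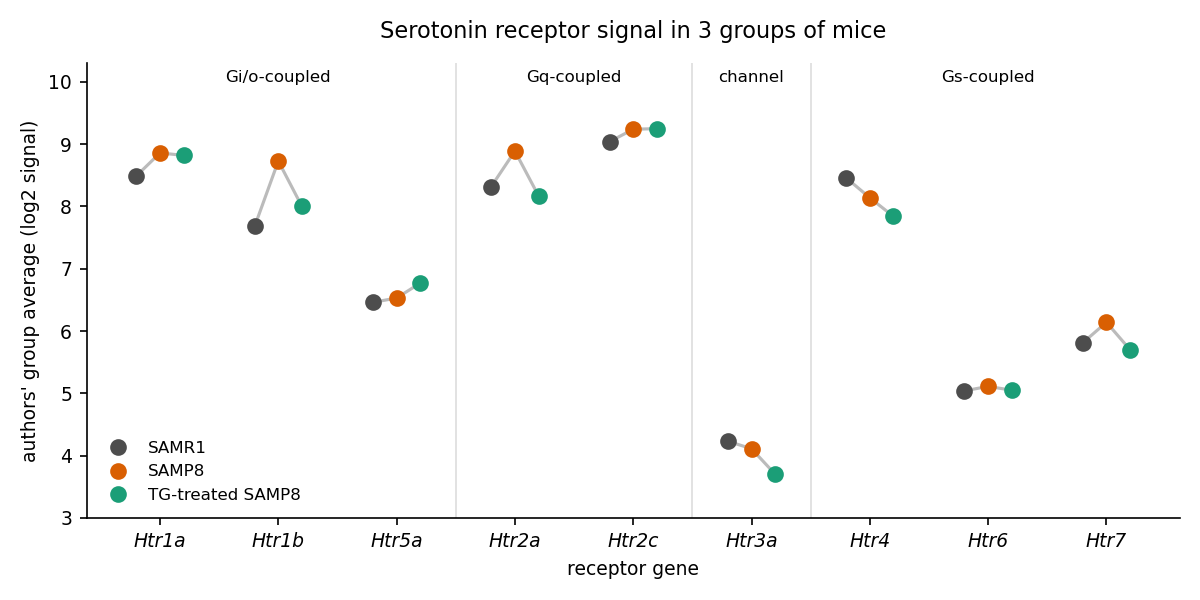
Each point is the authors' average (log2 signal, vertical axis) of 1 group for 1 of the 9 serotonin receptor genes, ordered by the way the receptor signals, and grey lines join the 3 averages of a gene. No error bars can be drawn because the tables hold 1 average per group. Htr1b (7.68, 8.73, 8.00) and Htr2a (8.32, 8.89, 8.17) peak in SAMP8, and Htr4 (8.46, 8.14, 7.84) steps down from SAMR1 to TG-treated SAMP8.

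To give these sizes a scale, each was compared with probe sets whose mean signal was similar, 1110 in the class of Htr1b and as many in that of Htr2a. Of those, 2.97% differed between SAMP8 and SAMR1 by as much as Htr1b in either direction, and 15.9% by as much as Htr2a. With TG the shares were 5.68% for Htr1b and 6.04% for Htr2a. These shares describe how far other genes lay apart on the same arrays and say nothing of the error of either average. Htr1b lies on chromosome 9 from 81628291 to 81633832, and Htr2a on chromosome 14 from 74640874 to 74706859 (build GRCm38, RefSeq annotation).

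Of the other Gi/o-coupled receptors among the 9, Htr1a and Htr5a were both highest outside SAMR1, by small amounts. Htr1a encodes the receptor that hyperpolarizes hippocampal pyramidal and granule cells and, in the raphe, the serotonin neurons themselves. Its SAMR1 average of 8.49 compared with 8.86 in SAMP8 and 8.82 after TG. SAMP8 was 0.37 above SAMR1, and with TG the average differed from that of SAMP8 by -0.04. Htr5a, a neuronal receptor whose roles are less well known, stood at 6.46, 6.53 and 6.77 in these groups. Its difference was 0.07 between the strains and 0.24 with TG. In the TG-treated group, all 3 Gi/o-coupled receptors among the 9 lay above SAMR1, by 0.31 to 0.33. This nearness depends on the scaling, because centring on probe sets of similar signal and genomic span gave 0.17 for Htr1a, 0.16 for Htr1b and 0.32 for Htr5a. The Htr1 and Htr5 genes outside the 9 lay below SAMR1 in the TG-treated group, Htr1d by -0.19, Htr1f by -0.10 and Htr5b by -0.28. Htr1a lies on chromosome 13 from 105443693 to 105448133, and Htr5a on chromosome 5 from 27841716 to 27855086.

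The second Gq-coupled receptor, Htr2c, did not share the pattern of Htr2a. Htr2c is made by neurons and, in large amounts, by the choroid plexus, the tissue of the ventricles that secretes cerebrospinal fluid. The SAMR1 average was 9.04, the SAMP8 average 9.24 and the TG-treated average 9.25, so that the SAMP8 groups differed by 0.01 and SAMP8 lay 0.20 above SAMR1. Ttr, the transport protein that marks the choroid plexus most strongly, was listed at 8.45, 9.33 and 10.05 in the same order. The list of 15 choroid plexus markers as a whole had a median difference of -0.01 between the strains and 0.01 with TG. Its summed signal was 13.57, 13.84 and 13.66 on the log2 scale, and 3 of its genes were among the 25% of probe sets with least signal. That sum mostly follows the brightest gene, Enpp2 (13.45, 13.70 and 13.45), and is no measure of the amount of choroid plexus. The part of this tissue in the signal of Htr2c was not tested. Htr2c lies on chromosome X from 146962464 to 147197277. Its transcript is known to be edited and spliced, and a single average per gene does not separate these forms.

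Htr3a, the channel subunit, which in the hippocampus is made mainly by a class of interneurons, was lowest with TG. With TG it was listed at 3.70, against 4.11 without TG and 4.23 in SAMR1. The difference was -0.12 between the strains, -0.41 with TG and -0.53 between TG-treated SAMP8 and SAMR1. Only 17.1% of all probe sets had a lower mean signal, and Htr3a was the single one of the 9 receptors among the 25% with least signal. Among the 1111 probe sets of similar signal, 8.73% differed by as much between TG-treated SAMP8 and SAMR1. Htr3b encodes the partner subunit of the same channel and lies next to it on chromosome 9, from 48935008 to 48964990, with Htr3a from 48899213 to 48911152. Htr3b went the other way, with averages of 3.28, 3.48 and 3.77, and it was also among that 25%.

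The Gs-coupled receptors were each lower with TG than without, by 0.06 to 0.44. Htr4 encodes a receptor that raises the excitability of pyramidal cells. Its average was 8.46 for SAMR1, 8.14 for SAMP8 and 7.84 for the TG-treated mice, a step of -0.32 between the strains and a further step of -0.30 with TG. TG-treated SAMP8 was therefore 0.62 below SAMR1 (difference -0.62, a ratio of 1.54), the one receptor of the 9 past the limit in that comparison. Of the 1110 probe sets of similar signal, 13.3% differed by as much. Htr7, a receptor that modulates hippocampal excitability and the daily clock, had averages of 5.81, 6.14 and 5.70 and so followed the order of Htr2a, with differences of 0.33 and -0.44. Htr6, a receptor of neurons that has been a target of drugs for cognition, had nearly the same average in every group, with 5.04 for SAMR1, 5.11 for SAMP8 and 5.05 for the TG-treated mice. The range of its averages, 0.07, was the smallest of the 9 receptors, and that of Htr1b, 1.05, the largest. Htr7 lies on chromosome 19 from 35958415 to 36058133, and Htr6 on chromosome 4 from 139059706 to 139075570.

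**Figure D2:**
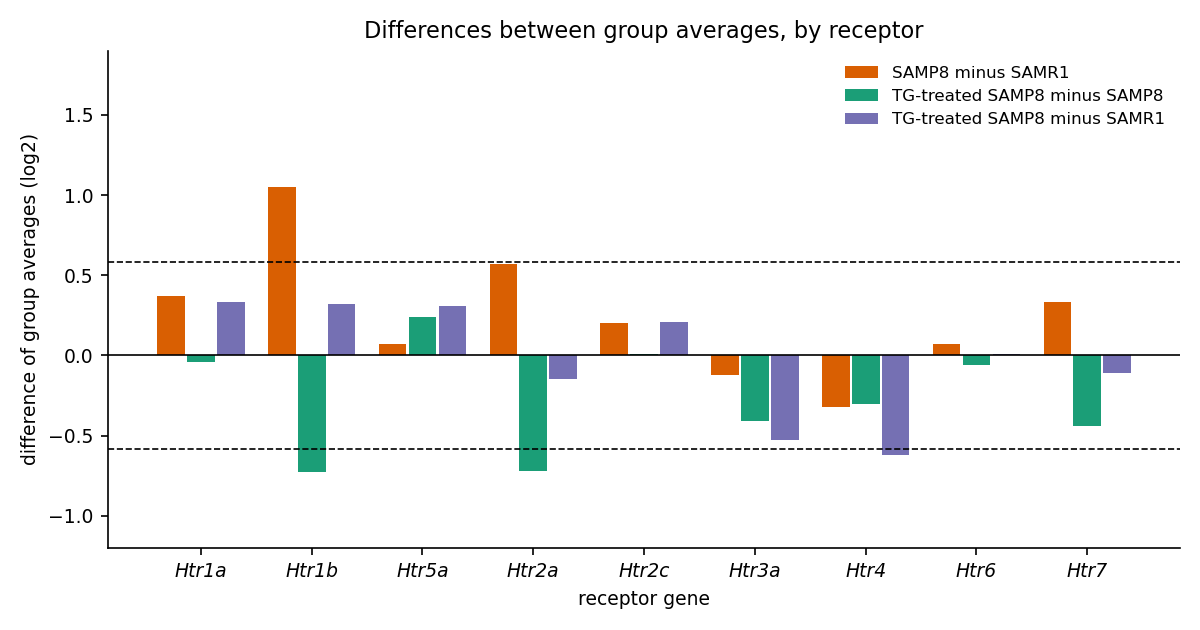
Bars give the difference between 2 group averages (log2, vertical axis) for each of the 9 receptor genes in 3 comparisons, and dashed lines mark 1.5-fold. Only Htr1b passes the upper line in SAMP8 vs SAMR1 (1.05), Htr1b (-0.73) and Htr2a (-0.72) pass the lower line with TG, and Htr4 (-0.62) passes it in TG-treated SAMP8 vs SAMR1.

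As a family, the 9 receptors had a median difference of 0.20 between SAMP8 and SAMR1, against 0.00 over all probe sets. SAMP8 was higher for 7 of them and lower for 2, while 49.5% of all probe sets were higher. One receptor, Htr1b, was higher past 1.5-fold (5.00% of all probe sets) and 0 were lower past it (6.08% of all probe sets). With TG the median was -0.30, against 0.01 over all probe sets, and 7 receptors were lower and 2 higher, while 48.3% of all probe sets were lower. Past 1.5-fold, 2 were lower (3.74% of all probe sets) and 0 were higher (4.48% of all probe sets). Between TG-treated SAMP8 and SAMR1 the median was 0.01, with 5 receptors higher (48.1% of all probe sets) and 4 lower. In that comparison 0 were higher past 1.5-fold (5.62% of all probe sets) and 1 was lower (4.83% of all probe sets).

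The counts depend on the limit. At 1.1-fold, the fold limit used in the study, 6 receptors were past it between SAMP8 and SAMR1 (65.5% of all probe sets), 6 with TG (63.4% of all probe sets) and 7 between TG-treated SAMP8 and SAMR1 (64.9% of all probe sets). Shares of the receptors and of all probe sets were close to each other there. At 1.2-fold the counts were 5 (40.8% of all probe sets), 5 (38.2% of all probe sets) and 5 (40.5% of all probe sets). At 2-fold, Htr1b was left in SAMP8 vs SAMR1 (2.22% of all probe sets), and 0 receptors in the other two comparisons (0.761% and 1.81% of all probe sets).

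**Figure D3:**
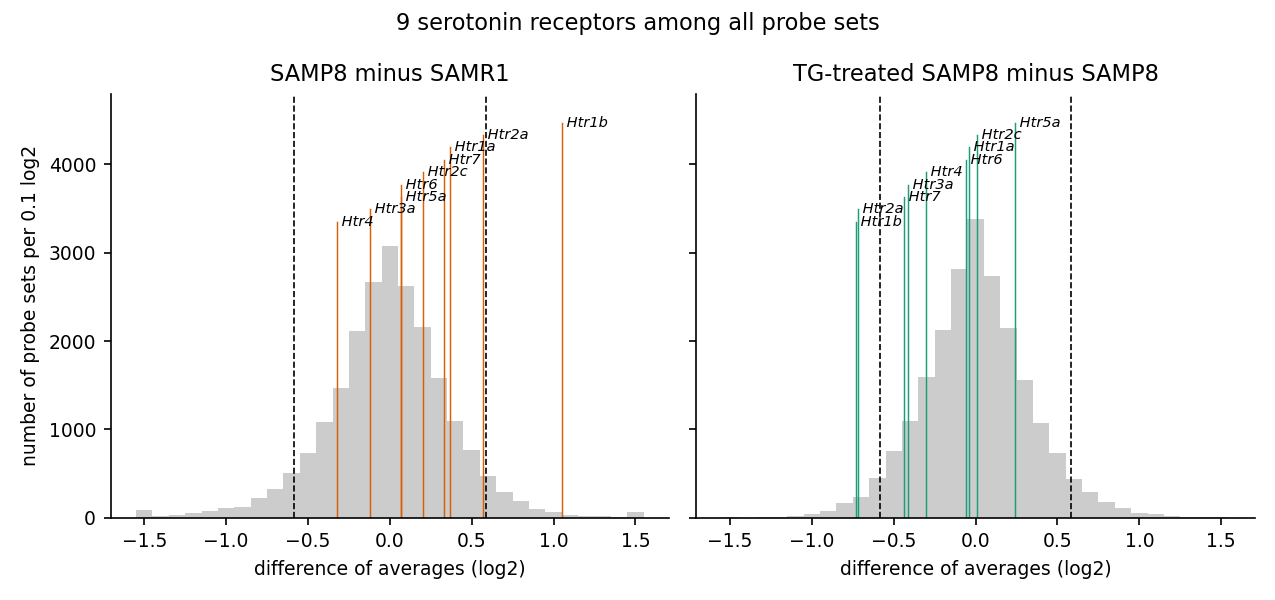
Grey bars count all 22206 probe sets by their difference of averages (log2, horizontal axis, in steps of 0.1), with values beyond 1.5 placed in the end bars. Coloured lines mark the 9 receptors and dashed lines 1.5-fold. Between SAMP8 and SAMR1 (left) the receptors range from -0.32 (Htr4) to 1.05 (Htr1b), and with TG (right) from -0.73 (Htr1b) to 0.24 (Htr5a).

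The 5 receptor genes outside the 9 had median differences of -0.16 between the strains and 0.17 with TG, of opposite sign to those of the 9. Htr1f, a Gi/o-coupled receptor, had the order of Htr2a and Htr7, with 7.50 for SAMR1, 7.77 for SAMP8 and 7.40 for the TG-treated mice. Htr1d, a Gi/o-coupled receptor of axon terminals, was listed at 4.21, 3.90 and 4.02, and Htr2b, a Gq-coupled receptor found mainly outside the brain, at 3.20, 3.04 and 3.28. Htr5b, which is prominent in the habenula, stood at 5.69, 5.24 and 5.41. SAMP8 was above SAMR1 for Htr1f and Htr3b and below it for the other three. With TG, 4 of these 5 genes were higher and 1 lower. Over all 14 receptor genes the median difference was 0.14 between the strains and -0.05 with TG. The shift of the family with TG was thus smaller when all receptor genes were counted. Of the added genes, Htr1d, Htr2b and Htr3b were dim, with a lower mean signal in only 17.6%, 2.15% and 7.04% of all probe sets. These were higher with TG, as was Htr5b (42.3%), while Htr1f (65.0%) was lower. Among the 9, Htr3a was also dim (17.1%) and was lower with TG (-0.41). The part of low signal in these directions was not tested.

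Genes that make, store, take up and break down serotonin showed no common direction. Between SAMP8 and SAMR1, 1 of 9 was higher past the limit (5.00% of all probe sets) and 0 lower, and with TG 1 was lower (3.74% of all probe sets) and 0 higher. Between TG-treated SAMP8 and SAMR1, Tph1 (0.76) and Ddc (0.64) were higher past it (5.62% of all probe sets) and Maoa (-0.63) lower (4.83% of all probe sets). Maob, a monoamine oxidase of astrocytes and serotonin neurons, was 0.63 higher in SAMP8 than in SAMR1 (7.37 and 8.00), and stood at 7.57 with TG. Maoa, the oxidase that prefers serotonin, was listed at 8.11 for SAMR1, 7.58 for SAMP8 and 7.48 with TG. Between the strains it was thus lower where Maob was higher, and with TG both were lower (Maoa -0.10, Maob -0.43). Slc18a1, a vesicular monoamine transporter known mainly from endocrine cells, differed by -0.71 with TG (4.24 and 3.53), and was likewise among that 25%. Its neuronal counterpart Slc18a2 stood at 6.25, 6.00 and 5.83.

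Tph1 and Tph2 encode the hydroxylases that begin serotonin synthesis, the latter in neurons. Tph1 was listed at 4.33, 4.51 and 5.09, and Tph2 at 5.97, 6.08 and 6.33. Ddc, which completes the synthesis, had averages of 4.55, 5.04 and 5.19. These 3 genes shared the order SAMR1, SAMP8, TG-treated SAMP8 from low to high. The serotonin transporter Slc6a4 had averages of 4.49, 4.61 and 4.54. Aldh2, which oxidizes the product of the monoamine oxidases, had averages of 9.99, 9.84 and 10.17. Cell bodies of serotonin neurons lie in the raphe and not in the hippocampus, and Fev, the transcription factor that defines them, was listed at 3.20, 3.21 and 3.11, with a lower mean signal in only 2.15% of all probe sets.

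Of the genes for proteins that carry the receptors to the membrane or bind them, 8 were measured by a probe set of their own. With TG, 6 of the 8 were higher, with a median difference of 0.21, while 11108 of all 22206 probe sets were higher. The 2 higher past the limit (4.48% of all probe sets) were Yif1b, which takes part in moving the Htr1a receptor to dendrites (8.13, 8.12 and 9.06), and Arrb1, an arrestin that ends G-protein signalling (13.29, 12.93 and 13.53). S100a10, which binds the Htr1b and Htr4 receptors, had averages of 6.45, 6.26 and 6.46. Its differences, -0.19 between the strains and 0.20 with TG, were inside the limit, and a relation to Htr1b was not tested. Ric3, a chaperone of the Htr3a channel, had averages of 10.04, 10.01 and 9.98.

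Among 25 G proteins and direct effectors, 2 were higher past the limit in SAMP8 than in SAMR1 (5.00% of all probe sets) and 0 lower (6.08%). Adcy8, a calcium-activated adenylyl cyclase, was listed at 7.85, 9.06 and 8.69, and Gnal, a stimulatory G protein of the olfactory system and striatum, at 11.18, 11.91 and 11.07. With TG, Gnal was lower past the limit (-0.84) and Kcnj9, a subunit of the potassium channels that Gi/o proteins open, was higher (0.62), each the single one of the 25 in its direction (3.74% and 4.48% of all probe sets). The other subunits of those channels in the list went both ways with TG, Kcnj3 by -0.41, Kcnj6 by -0.42 and Kcnj5 by 0.44. Of 9 regulators of G-protein signalling, which shorten the signal of such receptors, Rgs16 was higher past the limit in SAMP8 than in SAMR1 (5.72 and 6.42; 5.00% of all probe sets) and Rgs4 with TG (12.66 and 13.34; 4.48%).

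The receptors for other amines (dopamine, adrenaline, acetylcholine at its muscarinic receptors, and histamine) comprised 23 genes. Their median difference was 0.07 between SAMP8 and SAMR1 and -0.06 with TG, beside 0.14 and -0.05 for all 14 serotonin receptor genes. With 1 gene higher between the strains (5.00% of all probe sets), and 1 lower (3.74%) and 1 higher (4.48%) with TG, those past the limit were Hrh2, the histamine receptor coupled to Gs (0.65 between the strains), Drd2, the inhibitory dopamine receptor (-0.96 with TG), and Adra1b, a Gq-coupled adrenoceptor (0.74 with TG). A supplementary sheet of the study lists values per array for Drd2 and Adra1b that do not match these deposited averages, and it was not used here. Of the 28 other amine and serotonin receptor genes, those nearest to Htr1b in their pair of differences were Hrh2, Drd2 and Htr1f, at distances of 0.71, 0.75 and 0.86 on the log2 scale. Each of the 3 was nearer to 0 than Htr1b between the strains. Whether the serotonin receptors differ from these families was not tested.

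**Figure D4:**
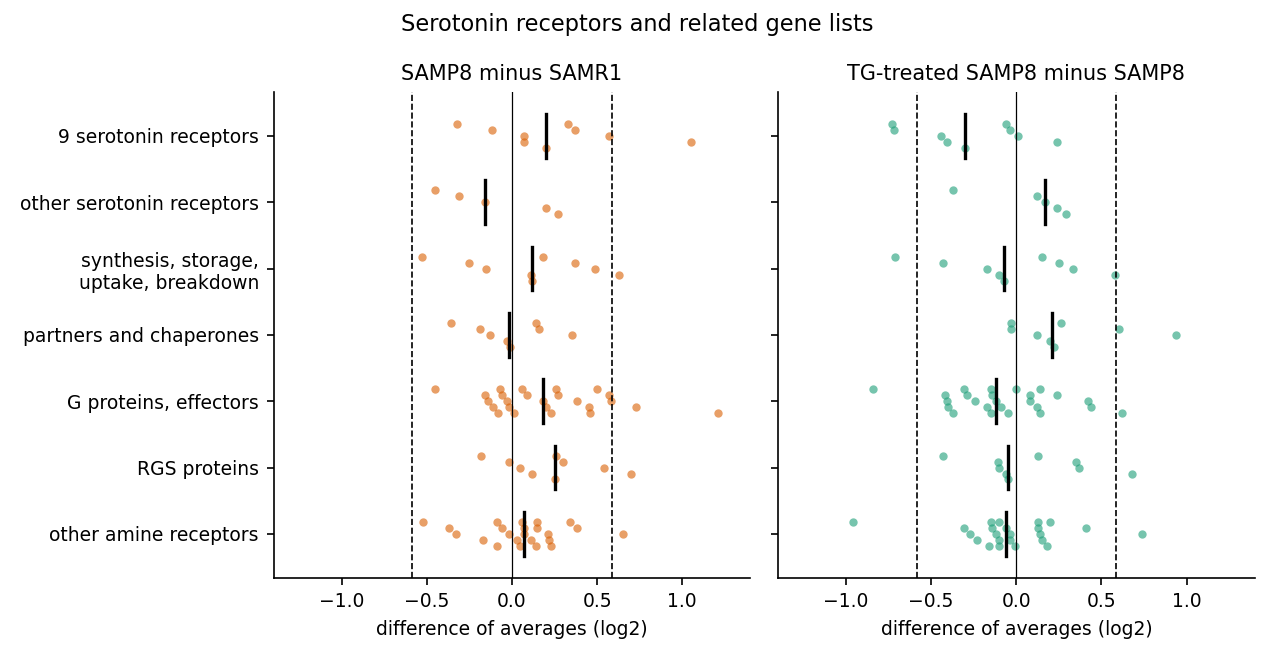
Each point is 1 gene, placed by its difference of averages (log2, horizontal axis), in 7 lists of genes (vertical axis), and the thick bar is the median of the list. Dashed lines mark 1.5-fold. The 9 serotonin receptors have medians of 0.20 between SAMP8 and SAMR1 (left) and -0.30 with TG (right), and the other five serotonin receptors -0.16 and 0.17.

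The arrays carried the markers of hippocampal tissue, and the 10 markers of pyramidal and granule neurons had a median difference of 0.40 between the strains and 0.00 with TG. Slc17a7, the glutamate transporter of pyramidal and granule cells, was listed at 18.02, 18.12 and 18.11, and Camk2a at the highest value of the tables, 19.93, in every group. Prox1, which marks granule cells of the dentate gyrus, stood at 11.26, 11.85 and 11.00, and Wfs1, a marker of CA1 pyramidal cells, at 10.79, 11.23 and 10.75, both in the order seen for Htr2a. Spink8 (5.20, 6.50 and 6.33) and Calb1 (10.28, 10.98 and 10.60) had the order of Htr1b and lay above SAMR1 in both SAMP8 groups. Others of the list had other orders, such as Nrgn, a calmodulin-binding protein of dendrites (14.07, 14.90 and 15.74). Between the strains, 4 of the 10 were higher past the limit (5.00% of all probe sets) and 0 lower (6.08%). In RNA of whole tissue, fewer cells of a type and less RNA per cell cannot be told apart.

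Several marker lists of neighbouring tissues and other cells were, like Htr1b and Htr2a, highest in SAMP8 by summed signal. Each sum is of linear signal, so the brightest probe sets of a list weigh most in it. Vtn (10.94, 12.12 and 11.74) was the brightest of smooth muscle and endothelium, and P2ry12 (11.17, 12.03 and 11.60) of microglia. Pde10a (12.47, 12.33 and 12.42), the brightest of striatum, was lowest in SAMP8. The summed signal of 13 meningeal markers was 11.65 for SAMR1, 11.85 for SAMP8 and 10.68 with TG on the log2 scale. With TG, 6 of the 13 were lower past the limit (3.74% of all probe sets). That of 11 markers of thalamus and habenula was 12.61, 12.90 and 12.02, with 2 of 11 lower past the limit (3.74%). Those were Zic1 (11.47 in SAMP8 and 9.56 with TG) and Prkcd (11.03 and 9.53), while the median of the list with TG was 0.07, with 6 markers higher and 5 lower. For 10 markers of smooth muscle and endothelium the sum was 11.56, 12.56 and 12.17, with 2 of 10 lower (3.74%) and 1 higher (4.48%) past the limit. For 10 markers of striatum it was 13.10, 13.31 and 13.09, with 2 of 10 lower past the limit (3.74%). For 9 microglial markers it was 11.67, 12.35 and 12.05, with 0 of 9 lower (3.74%) and 1 higher (4.48%) past the limit. The median differences with TG were -0.44 for meninges, -0.34 for smooth muscle and endothelium, -0.11 for striatum and -0.03 for microglia. None of these 5 lists held a marker at 0, and 1 gene of each but the microglial list was among the 25% of probe sets with least signal. The part of these tissues and cells in the averages of Htr1b and Htr2a was not tested. The 12 interneuron markers had a median difference of 0.00 between the strains and 0.19 with TG. With TG, 3 of them (Pvalb, Sst and Vip) were higher past the limit (4.48% of all probe sets) and 0 lower (3.74%). By any amount, 6 of the 12 were higher with TG and 5 lower, while 48.3% of all probe sets were lower. Gad1 (-0.35), Gad2 (-0.43) and Slc32a1 (-0.20) were among those lower, as Htr3a was (-0.41). Other summed signals were highest with TG. These were of interneuron (14.56, 14.59 and 14.73) and of pyramidal and granule neuron markers (20.30, 20.34 and 20.36). Those of astrocyte (18.75, 18.88 and 19.00) and oligodendrocyte markers (18.89, 18.74 and 18.95) were too. The sum of pyramidal and granule neuron markers mostly follows Camk2a, at 19.93 in every group. In all, 10 probe sets reached that highest average, which may be a ceiling. Of the markers in that list, 4 were higher and 5 lower with TG.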

How the data were processed

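RNA was measured on Clariom S Mouse arrays, and the authors summarized and normalized the intensities by SST-RMA in the Transcriptome Analysis Console, with array annotation on mm10 (GRCm38). The authors' deposited tables, 1 for each of 2 comparisons, hold group averages as log2 signal, and the SAMP8 averages of all 22206 probe sets were equal in both. The tables also hold the authors' fold changes and p-values, which were not used. Duplicate RNA samples are mentioned in the series text, but the records list 3 arrays per group. A description attached to the records concerns a macrophage cell line and was not used. Groups were taken from the sample titles.

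Differences of averages, medians and counts past 1.5-fold were computed in Python 3.11.15 with numpy 2.4.6 and pandas 2.3.3, and the steps were tested on simulated data. Genes were placed on GRCm38 by symbol through a RefSeq table. A gene with several probe sets was taken at the one with the highest mean. Similar signal means 1 of 20 classes of mean signal. All members, the other serotonin receptors and the genes of serotonin handling are named, and of other lists at most 4 genes past 1.5-fold in either main comparison. Of marker lists the 3 genes with the highest average could be named as well. Marker lists are mostly given by counts, without every gene this rule names. Wfs1, S100a10, Ric3, Kcnj3, Kcnj5, Kcnj6, Fev, Gad2 and Slc32a1 were named after their values were seen. Members and lists were chosen with earlier results of these data known. No sequence is shown, and the enzyme-linked assays and behaviour were not analysed here.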

Additional observations from a re-analysis of the deposited data

How the results depend on the processing

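Centring each group on its median over all probe sets moved every difference by at most 0.05. It brought Htr2a (0.62) past 1.5-fold, so that 2 receptors were past it between SAMP8 and SAMR1 in place of 1. The share of all probe sets past 1.5-fold was not computed with this centring. Limits of 1.1-fold and 1.2-fold gave 6 and 5 receptors between SAMP8 and SAMR1 (65.5% and 40.8% of all probe sets). With TG they gave 6 and 5 (63.4% and 38.2%), and between TG-treated SAMP8 and SAMR1 7 and 5 (64.9% and 40.5%). A limit of 2-fold gave 0 in the last 2 comparisons (0.761% and 1.81%). Dropping the dimmest 25% of probe sets removed Htr3a alone and left 8 receptors, whose median difference was -0.18 with TG in place of -0.30, and 0.11 in place of 0.01 between TG-treated SAMP8 and SAMR1. With all 14 receptor genes, the median between TG-treated SAMP8 and SAMR1 was -0.05 in place of 0.01, a reversal of a value near 0. The median with TG was then -0.05 in place of -0.30. Of the genes added there, Htr1d, Htr2b and Htr3b were themselves among the dimmest 25% of probe sets.

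In alternatives chosen after seeing the data, differences were centred on probe sets of similar signal, or of similar signal and genomic span (97.2% of probe sets had a span). With span, 1 receptor was past 1.5-fold with TG in place of 2, since Htr2a came to -0.55, and 0 in place of 1 between TG-treated SAMP8 and SAMR1, since Htr4 came to -0.57. Shares of all probe sets past the limit were not computed for these alternatives. Over the alternatives, Htr1b kept differences of at least 0.91 between the strains and from -0.76 to -0.67 with TG. Of 105 alternative values of single receptors, 2 had the other sign, those of Htr1a (0.02 in place of -0.04) and Htr2c (-0.02 in place of 0.01) with TG. Dropping dim probe sets leaves the difference of a single receptor as it was, so the values from that setting could not change sign. Sizes moved by up to 0.24. With span, Htr1a came to -0.28 and Htr4 to -0.13 (from -0.30) with TG, and Htr2c to 0.04 (from 0.20) between the strains.

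No paired analysis was possible because the tables hold group averages and no values per replicate, and for the same reason leaving out each replicate was not run.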

Other observations

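The genes that lie near the receptors with the widest differences were looked up after those differences were seen, within 1 Mb of the start of each gene in GRCm38. Mei4, a meiosis gene and the only neighbour of Htr1b measured by a probe set of its own, differed by 0.20 between SAMP8 and SAMR1 and by -0.11 with TG. The 9 neighbours of Htr2a had a median difference of 0.16 between the strains, from -0.80 (Lrrc63) to 0.53 (Siah3), and of 0.07 with TG, from -0.59 (Lcp1) to 0.44 (5031414D18Rik).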
